A study of Mus musculus with 44 samples.

Results

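The peaks at 6 regulators of the primitive endoderm (PE) were described in the ATAC-seq data: *Gata6*, *Gata4*, *Sox17*, *Sox7*, *Foxa2* and *Pdgfra*. ATAC-seq reads open chromatin from the sites at which the Tn5 transposase inserts into DNA. A peak was taken as a member when its centre lay in a fixed window around a gene, and 64 of the 152393 peaks were members. Of these, 18 lay at *Gata6*, 20 at *Gata4*, 4 at *Sox17*, 3 at *Sox7*, 2 at *Foxa2* and 17 at *Pdgfra*. The windows are chr18:11030000-11110000, chr14:63180000-63290000, chr1:4470000-4520000, chr14:63925000-63970000, chr2:148020000-148070000 and chr5:75130000-75220000 of mm10, in the order of the genes. The rule for the peaks holds gene windows and no measured value, but the genes were chosen with earlier results of these data known.

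The 44 libraries were pools of mouse embryos in 12 conditions, labelled B6C3F1. *Pou5f1*-KO and Ctrl were profiled as morulae (E2.75), late morulae (E3.25), early ICMs (E3.75) and late ICMs (E4.5), and *Sox2*-KO and Ctrl as early and late ICMs. There were 3 libraries in each morula condition and 4 in each ICM condition. Mothers carried floxed copies of the targeted gene, which Zp3-Cre, a recombinase made in oocytes, deletes in the egg. Both KO and Ctrl embryos therefore lacked the maternal product. KO embryos in addition inherited a paternal KO allele with a reporter, mKO2 for *Pou5f1* or EGFP for *Sox2*, and were picked by its fluorescence, so *Pou5f1* Ctrl and *Sox2* Ctrl embryos came from different crosses. ICMs were cultured with 1 μM of the MEK inhibitor PD0325901 and isolated by immunosurgery, while morulae were used whole and without the inhibitor. A comparison of morula with ICM is thus also one of these treatments. In a pool, a smaller share of cells open at a peak and less opening per cell cannot be told apart.

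The PE is the layer of the blastocyst that goes on to form the yolk sac endoderm, and it arises in the ICM beside the epiblast. FGF4 from the epiblast precursors acts through ERK to keep *Gata6* on, and *Gata6* stands at the top of the PE programme, with *Pdgfra*, *Sox17*, *Gata4* and *Sox7* switched on after it. MEK inhibition blocks this route and leaves an ICM of epiblast cells, so the ICMs here are ones in which the PE programme is held back. Oct4, the product of *Pou5f1*, is known in epiblast cells for maintaining pluripotency and for the expression of FGF4, and it is also needed for PE formation. Oct4 and Sox2 can bind side by side at a composite OCT-SOX motif, and Oct4 and Sox17 can pair at a compressed form of that motif.

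The values are rlog values, which are log2 insertion counts scaled between libraries and shrunk at weak peaks, so differences at weak peaks are understated and the depth of each library is unknown. All differences below are KO minus Ctrl on this log2 scale unless another pair is named. They were tested with limma over all peaks in a fit of all libraries with 32 residual degrees of freedom, and a peak was called at a Benjamini-Hochberg adjusted p under 0.05. Each peak is named by its gene and the distance in kb of its centre from the 5′ end of the gene's longest annotated extent, negative when upstream. The libraries were alike in scale, with medians between 2.35 and 2.63. In the check of the targeted genes, 2 of the 10 peaks within 10 kb of *Pou5f1* were called lower in *Pou5f1*-KO ICMs of either stage and none in morulae, while 1 and 2 of the 6 peaks at *Sox2* were called lower in *Sox2*-KO early and late ICM.

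Of the 64 peaks, 16 (25%) were called in at least 1 of the 6 KO comparisons, against 24.5% of all peaks, and 7 of these outside *Gata6* kept a call under every alternative setting tried. The sequences of these 7 are shown because the results turn on them (mm10, plus strand, from RefSeq GRCm38). The *Gata6* peak at −12.3 kb kept its calls as well, and its window, not printed here, holds none of the words. Capitals mark the words searched: GATA as AGATAA or TGATAA, SOX as ACAATG or ACAAAG, and the composite OCT-SOX motif of 15 letters with at most 3 mismatches, all on both strands. OCT as ATGNAAAT, FOXA as TGTTTAC and TEAD as GGAATG were searched too and are in none of these windows.

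*Sox7* −7.0 kb, chr14:63936624-63936823: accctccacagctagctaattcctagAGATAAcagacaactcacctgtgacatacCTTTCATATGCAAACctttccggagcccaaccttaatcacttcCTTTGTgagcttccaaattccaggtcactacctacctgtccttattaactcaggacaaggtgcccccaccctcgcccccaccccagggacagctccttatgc

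*Sox17* +25.8 kb, chr1:4471424-4471623: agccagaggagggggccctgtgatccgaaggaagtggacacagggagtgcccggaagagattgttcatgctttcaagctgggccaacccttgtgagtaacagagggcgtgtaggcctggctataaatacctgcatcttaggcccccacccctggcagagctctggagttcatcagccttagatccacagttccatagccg

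*Gata4* +86.4 kb, chr14:63185195-63185394: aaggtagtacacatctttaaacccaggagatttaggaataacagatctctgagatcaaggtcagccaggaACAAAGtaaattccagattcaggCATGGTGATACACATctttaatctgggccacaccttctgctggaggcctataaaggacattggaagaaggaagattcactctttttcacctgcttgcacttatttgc

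*Pdgfra* −15.0 kb, chr5:75137144-75137343: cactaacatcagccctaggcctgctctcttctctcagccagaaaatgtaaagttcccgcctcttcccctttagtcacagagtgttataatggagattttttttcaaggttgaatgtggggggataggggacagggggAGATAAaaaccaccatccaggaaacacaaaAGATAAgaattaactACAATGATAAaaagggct

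*Pdgfra* −14.3 kb, chr5:75137907-75138106: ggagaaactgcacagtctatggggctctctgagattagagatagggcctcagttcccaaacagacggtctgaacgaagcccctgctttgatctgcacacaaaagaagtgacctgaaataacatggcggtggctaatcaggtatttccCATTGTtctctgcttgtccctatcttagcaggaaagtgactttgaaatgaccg

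*Pdgfra* −5.0 kb, chr5:75147162-75147361: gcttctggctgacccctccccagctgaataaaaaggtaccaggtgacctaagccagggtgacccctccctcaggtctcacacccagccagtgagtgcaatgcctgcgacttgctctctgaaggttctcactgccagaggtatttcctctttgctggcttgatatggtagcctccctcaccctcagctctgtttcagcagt

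*Pdgfra* +24.2 kb, chr5:75176412-75176611: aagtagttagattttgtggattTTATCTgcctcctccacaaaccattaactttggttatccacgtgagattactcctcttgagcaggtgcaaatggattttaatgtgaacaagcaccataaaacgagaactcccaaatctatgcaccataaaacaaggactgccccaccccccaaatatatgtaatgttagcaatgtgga

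The *Sox7* window holds a GATA word, a SOX word and, between them, an OCT-SOX match CTTTCATATGCAAAC at 63936679 to 63936693 with 3 mismatches. The *Gata4* window holds a SOX word and an OCT-SOX match with 3 mismatches. The *Pdgfra* −15.0 kb window holds 3 GATA words and a SOX word that shares its last bases with the last GATA word. Neither the *Sox17* +25.8 kb nor the *Pdgfra* −5.0 kb window holds any of the words. Over the 64 peaks, GATA was in 20 of them (31.3%, against 25.3% of all peaks), SOX in 19 (29.7%, against 25.0%), TEAD in 5 (7.81%, against 18.9%), OCT-SOX in 3 (4.69%, against 5.03%), FOXA in 1 (1.56%, against 3.26%) and OCT in 0 (against 4.59%). The GATA word was in 9 of the 18 *Gata6* peaks. Of the 11 peaks called lower in *Pou5f1*-KO ICMs, 5 held the SOX word, 3 the GATA word, 1 the OCT-SOX word and 0 the TEAD word. A match is a description of letters and not a bound site.

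In morulae, none of the 64 peaks was called by limma in *Pou5f1*-KO (0.185% of all peaks were called lower and 0.0518% higher), and 2 had an unadjusted p under 0.05. In late morulae the count was again 0 (0.539% lower and 0.108% higher among all peaks), with 8 at an unadjusted p under 0.05. With the replicate numbers as a block it was 1 lower, *Sox17* +25.4 kb, and 1 higher, *Pdgfra* −16.9 kb (1.44, adjusted p = 0.0487 from limma against 0.116 without the block), both named after their values were seen. The shares of all peaks just given are from the fit without the block. Over the alternatives other than leaving out a library, 659 to 1357 of all peaks were called lower and 63 to 369 higher in late morulae. In the *Pou5f1*-KO early ICM, 8 of the 64 peaks were lower and 1 was higher. The lower ones were 12.5%, against 5.43% of all peaks, and the calls in either direction 14.1%, against 8.18%. Late ICMs had 9 lower and 4 higher, or 14.1% and 6.25%, against 10.1% and 8.19%. Leaving out 1 library gave 5 to 7 lower and 0 to 1 higher in early ICMs, where 6397 to 7472 of all peaks were lower. In late ICMs it gave 5 to 10 lower and 1 to 4 higher, with 12646 to 14455 of all peaks lower and 9256 to 11700 higher. In the *Sox2*-KO early ICM, 2 were lower and 0 higher (1.91% and 0.238% of all peaks; of the 64 peaks, 4 had an unadjusted p under 0.05), and in the late ICM 2 were lower and 1 higher (4.88% and 2.71%). The median difference over the 64 peaks was −0.11 in the *Pou5f1*-KO morula, where all peaks had −0.02. It was −0.02 in the *Pou5f1*-KO early ICM, where all peaks had −0.02, and 0.01 in the late ICM, where all peaks had −0.04. The other 48 of the 64 peaks had no call in any of the 6 KO comparisons.

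The calls were spread unevenly over the genes. In the *Pou5f1*-KO ICM of either stage, 11 peaks were called lower (17.2%, against 11.5% of all peaks). Of these, 6 lay at *Pdgfra*, 3 at *Sox17*, 1 at *Sox7* and 1 at *Gata6*. All 3 *Gata4* peaks that were called were higher, and the remaining higher peak lay at *Pdgfra*. The early and late ICM comparisons have separate KO and Ctrl libraries, and 6 peaks were called lower in both (9.38%, against 4.03% of all peaks). That is 6 of the 8 lower in the early ICM (75%, against 74.2% over all peaks) and 6 of the 9 lower in the late ICM (66.7%, against 39.8%). Of the 27 calls in KO comparisons, 13 held under every alternative that included the peak.

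**Figure D1:**
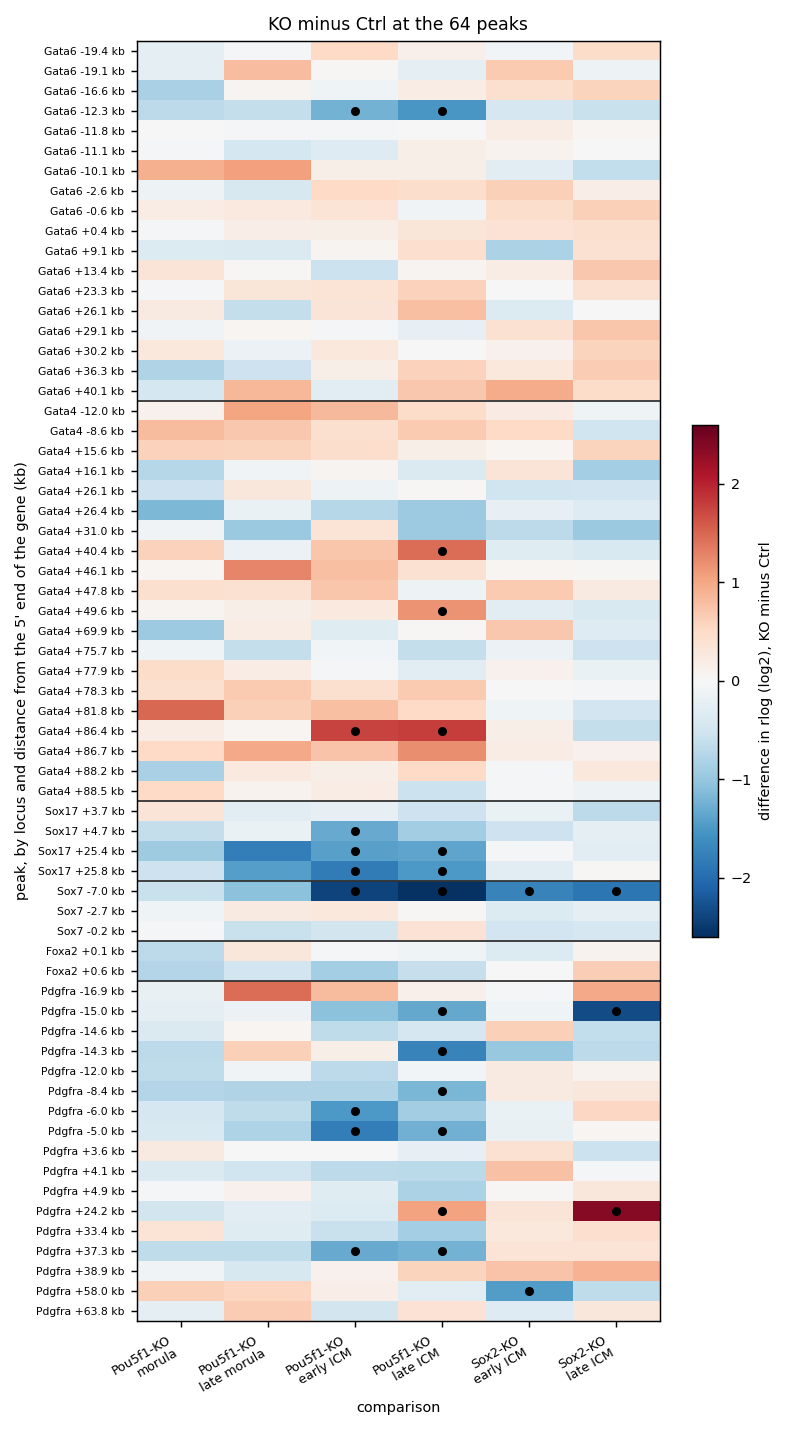
Difference in rlog (log2), KO minus Ctrl, at each of the 64 peaks (rows, by locus and distance from the 5′ end of the gene in kb) in the 6 KO comparisons (columns); blue is lower and red is higher in KO, and black dots mark peaks called by limma. The *Sox7* −7.0 kb peak is called in all 4 ICM comparisons, and the morula columns hold no call.

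Each gene has 1 peak whose edge lies within 100 bp of one of its own annotated start sites. In the 36 tests of these 6 peaks over the 6 KO comparisons limma made 0 calls, where 6.18% of all tests in these comparisons were called, with a smallest adjusted p of 0.145 and 2 at an unadjusted p under 0.05. The differences ranged from −1.17 to 0.41. The levels of the promoters differed widely. The *Gata6* promoter (chr18:11052335-11052534) was strongly open, with means from 5.07 to 6.01 over the 12 conditions and at the 98.4 percentile of all peaks in *Pou5f1* Ctrl morulae and the 94.9 percentile in Ctrl late ICMs, and that of *Pdgfra* (chr5:75155774-75155973) was open throughout, with means from 3.46 to 4.83. The *Foxa2* promoter (chr2:148046761-148046960) stayed weak, with means from 0.32 to 1.57. Those of *Gata4* and *Sox17* opened between late morula and early ICM. At *Gata4* (chr14:63245186-63245385, in an exon of the gene) the Ctrl late morulae had 0.89, 1.30 and 1.02 and the early ICMs 1.555, 3.249, 3.186 and 3.253. All of these early ICM libraries lay above all of these late morulae, and the difference, early ICM minus late morula, was 1.74 (standard error 0.49, adjusted p = 0.00435 from limma). At *Sox17* (chr1:4493550-4493749) the late morulae had 0.80, 2.03 and 2.44 and the early ICMs 3.41, 3.72, 2.99 and 3.64. The groups again did not overlap, and the difference was 1.69 (adjusted p = 0.00164 from limma). It fell to 1.21 (adjusted p = 0.0605) without Ctrl late morula replicate 1. The *Sox7* promoter (chr14:63943397-63943596) rose from 0.75 ± 0.22 (SD, n = 3) in the Ctrl morula to 2.32 ± 0.62 (SD, n = 4) in the early ICM in mean level, and no step between neighbouring stages was called.

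**Figure D2:**
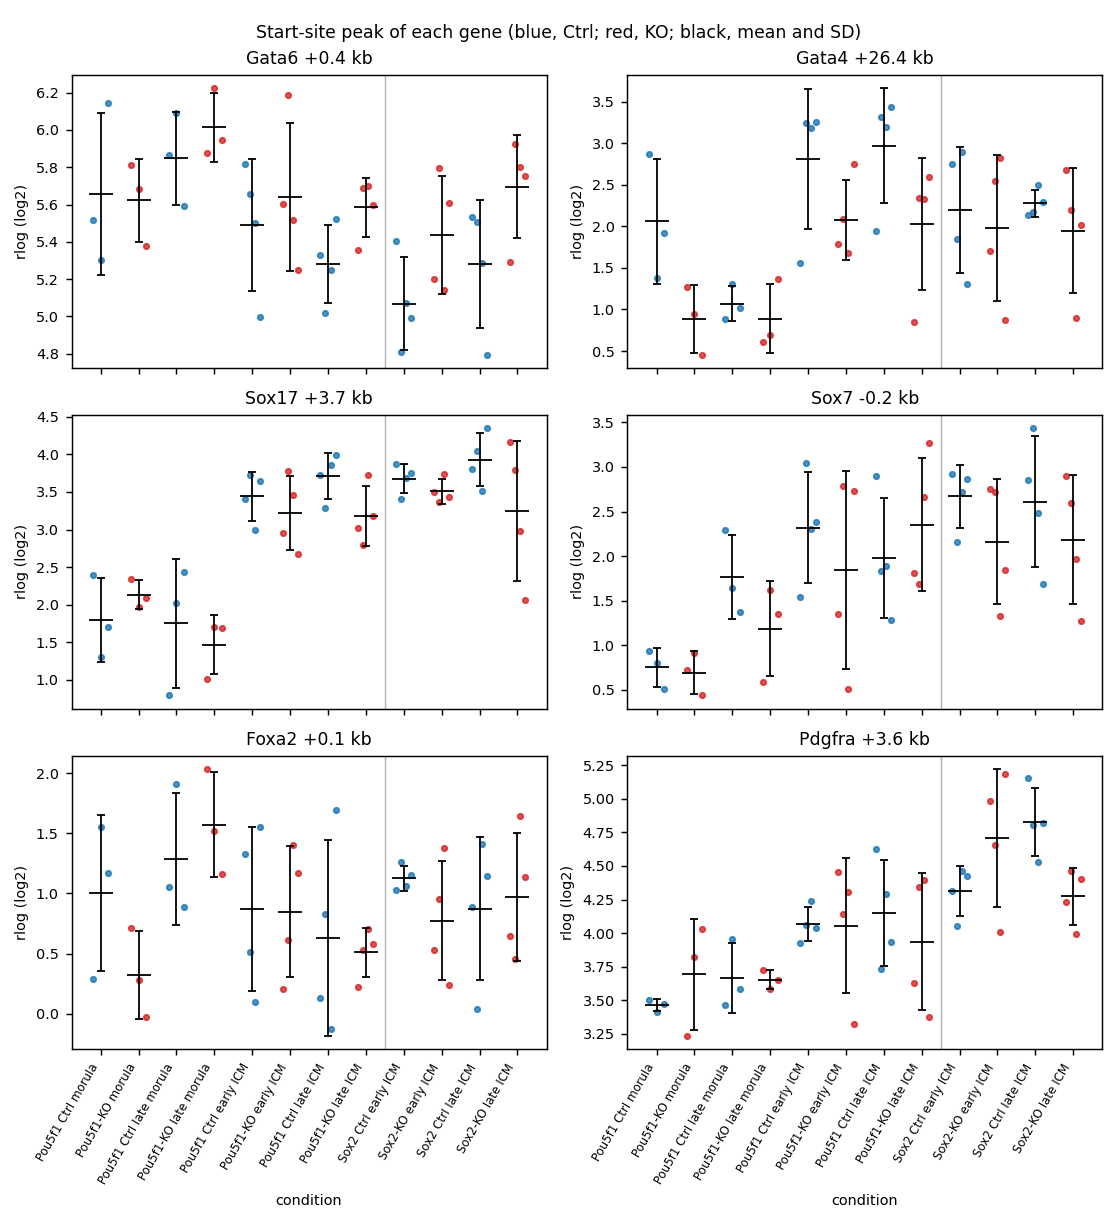
The rlog (log2) of the start-site peak of each gene in every library, by condition; blue points are Ctrl, red points KO, and black bars the mean and SD over 3 (morula) or 4 (ICM) libraries. *Gata6* and *Pdgfra* are open from the morula on. *Gata4* and *Sox17* are higher in *Pou5f1* Ctrl early ICMs than in Ctrl late morulae, and KO and Ctrl points lie in like ranges in most conditions.

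In Ctrl embryos, 12 of the 64 peaks were called higher and 3 lower in the early ICM than in the late morula (18.8% and 4.69%, against 14.7% and 15.0% of all peaks). The step from morula to late morula gave 4 lower and 0 higher (2.79% and 3.65% of all peaks), and the step from early to late ICM gave 1 lower and 0 higher in *Pou5f1* Ctrl (0.180% and 0.0787%) and the same counts in *Sox2* Ctrl (0.121% and 0.474%). The largest rise into the early ICM was at *Pdgfra* −6.0 kb, by 2.22 (standard error 0.43, adjusted p = 3.12e-05). Other peaks that rose were *Pdgfra* −14.3 kb (1.98), *Sox7* −7.0 kb (1.90), *Gata4* +49.6 kb (1.77) and +40.4 kb (1.72), and *Gata6* −12.3 kb (1.28), with limma's adjusted p at or under 0.00455. The rise at *Gata4* +40.4 kb was 1.31 (adjusted p = 0.0741) without Ctrl late morula replicate 1. *Gata6* +30.2 kb, within the gene, went the other way. It had 5.61, 5.60 and 5.32 in late morulae and 4.05, 4.22, 3.51 and 2.92 in early ICMs, a fall by 1.83 on the log2 scale (adjusted p = 0.000107 from limma) with no overlap. These comparisons share the Ctrl early ICM libraries with the KO comparisons below, so calls in both are not independent of each other.

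*Gata6* encodes the zinc-finger factor that starts the PE programme. In the *Pou5f1* Ctrl late ICM, 12 of its 18 peaks lay above the median of all peaks, 2.50, with the MEK inhibitor present. A single peak was called in a KO comparison, at −12.3 kb (chr18:11039626-11039825, in an intron of the noncoding RNA 1010001N08Rik). Early ICM libraries of Ctrl had 5.29, 5.30, 4.41 and 5.45 and *Pou5f1*-KO libraries 3.59, 4.52, 3.94 and 3.52. A single Ctrl library, replicate 3, fell within the KO range. The difference was −1.22 (standard error 0.34, adjusted p = 0.0100 from limma). Late ICM libraries of Ctrl had 4.89, 4.40, 5.21 and 5.26 and KO libraries 3.11, 3.04, 3.99 and 3.53. Here every KO library lay below every Ctrl library, and the difference was −1.52 (adjusted p = 0.000362). In *Sox2*-KO the differences were −0.45 (early, adjusted p = 0.672) and −0.58 (late, adjusted p = 0.360), and no call was made on the difference between the knockouts, −0.94 in the late ICM with a 95% interval from −1.89 to 0.00. The peak was also open in Ctrl morulae, at 4.89 ± 0.34 (SD, n = 3).

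The other 17 *Gata6* peaks had no KO call. The most open of them, at +23.3 kb within the gene, had 5.57, 5.23, 5.28 and 5.14 in Ctrl late ICMs and 6.35, 5.80, 5.93 and 5.58 in *Pou5f1*-KO. Every KO library lay above every Ctrl library, by 0.61 on average, but limma's adjusted p was 0.0683. It passed with quantile normalization (adjusted p = 0.0318), without KO replicate 4 (0.0492) and with a replicate block (0.0286), although the numbers did not pair these libraries in every case. In *Sox2*-KO late ICMs the smallest adjusted p of the window was at +29.1 kb, with a difference of 0.72 (adjusted p = 0.241). The mean over the 18 peaks was 3.19 ± 0.21 (SD, n = 4) in Ctrl and 3.33 ± 0.16 (SD, n = 4) in *Pou5f1*-KO late ICM, and 3.46 ± 0.10 (SD, n = 4) and 3.73 ± 0.16 (SD, n = 4) in *Sox2* Ctrl and *Sox2*-KO.

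*Gata4* encodes the second GATA factor of the PE, which acts after *Gata6*. Its window was less open, with 4 of 20 peaks above the median of all peaks in the *Pou5f1* Ctrl late ICM, and its called peaks were higher in *Pou5f1*-KO. Of the 20 peaks, 7 lie on the neighbouring DNA repair gene *Neil2*, some of them at a start site of that gene. The peak at +86.4 kb lies 13.6 kb beyond the 3′ end of *Gata4*, in an intron of *Neil2*. At the early stage, Ctrl libraries had 3.08, 2.54, 1.80 and 0.76 and *Pou5f1*-KO libraries 3.54, 4.08, 4.10 and 3.47. The Ctrl libraries were widely spread, but all KO libraries lay above them. The difference was 1.75 (standard error 0.43, adjusted p = 0.00335 from limma) and dropped to 1.32 (adjusted p = 0.0636) without Ctrl replicate 4. At the late stage, Ctrl libraries had 3.18, 2.07, 0.91 and 0.74 and KO libraries 2.940, 3.129, 3.970 and 4.001. The groups overlapped through Ctrl replicate 1, and the difference was 1.79 (adjusted p = 0.00127). Morulae of both genotypes were at a like level, with means from 3.51 to 3.73. In Ctrl the peak fell from late morula to early ICM, by −1.46 (adjusted p = 0.0125), while the KO early ICM stood at 3.80 ± 0.34 (SD, n = 4). The fall in Ctrl was not called without Ctrl late morula replicate 1 or Ctrl early ICM replicate 4, with a smallest size of −1.03.

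This peak was the only one of the 64 at which the knockout effects were called different in the late ICM (0.554% of all peaks were called lower and 0.351% higher in this test). In *Sox2* Ctrl late ICMs it had 1.91, 2.40, 2.83 and 1.98, and in *Sox2*-KO 0.54, 1.79, 2.37 and 1.97. These groups overlapped, with a difference of −0.61 (adjusted p = 0.492). The *Pou5f1*-KO effect exceeded the *Sox2*-KO effect by 2.40 (95% interval from 1.19 to 3.62, adjusted p = 0.0279 from limma). That call was lost when any of 7 libraries was left out: *Pou5f1* Ctrl replicate 3 (2.13) or 4 (2.08), *Pou5f1*-KO replicate 3 (2.25) or 4 (2.24), *Sox2*-KO replicate 1 (2.03) and *Sox2* Ctrl replicate 2 (2.36) or 3 (2.22), with adjusted p from 0.0546 to 0.112. In the early ICM the 64 peaks gave 0 calls in this test (0.372% of all peaks lower, 0.308% higher), and 9 had an unadjusted p under 0.05.

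Both other called *Gata4* peaks lie in introns. At +49.6 kb (chr14:63221966-63222165), Ctrl early ICMs had 4.25, 3.93, 3.33 and 3.79 and Ctrl late ICMs 1.52, 2.62, 1.94 and 1.54. The stages did not overlap, and the fall was −1.92 (adjusted p = 0.00940 from limma), not called without Ctrl early ICM replicate 1 or late ICM replicate 4 (adjusted p up to 0.0728). *Pou5f1*-KO late ICMs had 3.15, 2.88, 3.18 and 3.11, all above Ctrl, a difference of 1.17 (adjusted p = 0.0288). Without Ctrl or KO replicate 1, 3 or 4 it was 1.04 to 1.18 and not called (adjusted p up to 0.0905). At +40.4 kb (chr14:63231241-63231440, with GATA words in its window), Ctrl late ICMs had 2.91, 1.41, 1.82 and 1.03 and KO 2.58, 3.73, 3.51 and 3.12. The groups overlapped, and the difference was 1.44 (adjusted p = 0.0145), not called without Ctrl replicate 2 (1.31) or 4 (1.19) or KO replicate 2 (1.28). Neither peak was called in *Sox2*-KO, with differences between −0.27 and −0.41. At both peaks the *Pou5f1* Ctrl and *Sox2* Ctrl early ICMs stood apart by 1.26 and 1.09 (adjusted p = 0.106 and 0.261), the *Sox2* line being lower. The most open *Gata4* peak, at +15.6 kb, stood at 3.06 in the *Pou5f1* Ctrl late ICM and had no KO call, and the one at +31.0 kb, with the smallest adjusted p of the window in the *Sox2*-KO late ICM, differed there by −0.96 (adjusted p = 0.168).

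*Sox17* encodes an HMG-box factor that is switched on in PE precursors after *Gata6*. In *Pou5f1*-KO ICMs 3 of its 4 peaks were called lower, against 11.5% of all peaks, and none in *Sox2*-KO, where 1.91% of all peaks were lower in early and 4.88% in late ICMs. The peak at +25.8 kb lies 19.4 kb beyond the 3′ end of the gene, outside any annotated gene. In the early ICM, Ctrl libraries had 3.17, 3.06, 3.15 and 3.31 and *Pou5f1*-KO libraries 2.17, 1.07, 0.92 and 1.26. The groups did not overlap, and the difference was −1.82 (standard error 0.40, adjusted p = 0.000808 from limma). In the late ICM, Ctrl libraries had 3.74, 2.15, 3.24 and 2.82 and KO libraries 1.35, 1.38, 1.12 and 2.10. The lowest Ctrl library lay just above the highest KO library, and the difference was −1.50 (adjusted p = 0.00403). Late morulae of the 2 genotypes were already apart, with 3.93, 3.88 and 4.14 in Ctrl and 2.36, 2.87 and 2.43 in KO. That difference, −1.43, had an adjusted p of 0.170 and was called only when the fit held the late morulae alone. In the *Sox2* line the libraries of both genotypes lay together, with 4.53, 3.94, 3.67 and 4.29 in *Sox2* Ctrl late ICMs and 4.46, 3.98, 3.82 and 4.28 in KO, a difference of 0.03 with a 95% interval from −0.77 to 0.83. The difference between the knockout effects, −1.53 in the late ICM (95% interval from −2.66 to −0.40), had an adjusted p of 0.201.

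The neighbouring peak at +25.4 kb (chr1:4471890-4472089) followed the same order at a lower level. It had 2.82, 2.44 and 3.00 in Ctrl and 0.59, 1.76 and 0.50 in KO late morulae, a difference of −1.80 (adjusted p = 0.0818 from limma, and 0.0375 with the replicate numbers as a block). In the late ICM, Ctrl had 2.21, 2.68, 1.30 and 1.59 and KO 0.84, 0.53, 0.34 and 0.58, a difference of −1.37 (adjusted p = 0.0206). Groups did not overlap at either stage, nor in the early ICM, where the difference was −1.41 (adjusted p = 0.0321). The late call was lost without Ctrl replicate 1 (−1.28) or 2 (−1.13) or KO replicate 3 (−1.29), and the early call without Ctrl replicate 3 or 4 or KO replicate 1, 2 or 3 (−1.20 to −1.41), in the fit of the compared libraries alone (adjusted p = 0.0539) and with quantile normalization (adjusted p = 0.0508). Within the gene, the peak at +4.7 kb (chr1:4492553-4492752, in the coding exon and a UTR) had 2.25, 3.68, 3.09 and 3.54 in Ctrl and 1.93, 1.97, 1.50 and 1.88 in KO early ICMs. The groups did not overlap, by a difference of −1.32 (adjusted p = 0.0473), but 7 of the 8 fits that left out a library lost the call, all but that without Ctrl replicate 1, with differences from −1.14 to −1.37. It was also not called in the fit of the compared libraries alone (adjusted p = 0.0671) or with quantile normalization (adjusted p = 0.0749). The mean over the 4 peaks was 3.00 ± 0.07 (SD, n = 4) in *Pou5f1* Ctrl and 1.92 ± 0.28 (SD, n = 4) in KO late ICMs, and 3.51 ± 0.24 and 3.22 ± 0.22 (SD, n = 4 each) in *Sox2* Ctrl and KO.

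*Sox7*, which encodes an HMG-box factor of the same subfamily, held the peak with the largest decrease of all 64. The −7.0 kb peak lies outside any annotated gene and has the GATA, SOX and OCT-SOX words printed above. In the early ICM, *Pou5f1* Ctrl libraries had 4.61, 4.75, 4.59 and 4.58 and KO libraries 2.84, 2.25, 1.01 and 2.77. In the late ICM, Ctrl libraries had 4.34, 4.43, 4.39 and 4.10 and KO libraries 2.33, 1.04, 0.78 and 2.81. At both stages the Ctrl libraries lay within a narrow band and all KO libraries were below it, by −2.41 (standard error 0.42, adjusted p = 1.31e-05 from limma) and −2.57 (adjusted p = 1.36e-06).

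The same peak fell in *Sox2*-KO, and it was the only one of the 64 called in all 4 ICM comparisons. Early *Sox2* Ctrl libraries had 5.57, 5.01, 4.23 and 5.46 and *Sox2*-KO libraries 2.88, 3.65, 2.95 and 3.84, a difference of −1.74 (adjusted p = 0.00745 from limma). Late *Sox2* Ctrl libraries had 4.87, 5.06, 5.61 and 5.41 and KO libraries 3.76, 2.37, 3.17 and 4.13, a difference of −1.88 (adjusted p = 0.000968). KO and Ctrl did not overlap at either stage. The *Pou5f1*-KO effect was larger by −0.69 in the late ICM, with a 95% interval from −1.88 to 0.50, so no difference between the knockouts was detected within these bounds. In morulae the peak stood at 3.50 ± 0.94 (SD, n = 3) in Ctrl and 2.92 ± 1.27 (SD, n = 3) in KO. In late morulae it stood at 2.73 ± 0.55 and 1.67 ± 0.51 (SD, n = 3 each), a difference of −1.06 (adjusted p = 0.496). Both peaks nearer to the gene, at −2.7 kb and −0.2 kb, had differences between −0.51 and 0.38 in the ICM comparisons, and neither was called.

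*Foxa2* encodes a forkhead factor of definitive and visceral endoderm. Its 2 peaks lie in the gene and had no KO call at any stage. The more open of them, in an intron at +0.6 kb (chr2:148046269-148046468), had 2.93, 2.54, 3.16 and 3.52 in *Pou5f1* Ctrl and 2.34, 2.49, 2.00 and 2.89 in KO late ICMs, and these groups overlapped. The difference was −0.61 with a 95% interval from −1.46 to 0.24. From late morula to early ICM in Ctrl its mean level went from 1.69 ± 0.94 (SD, n = 3) to 2.84 ± 0.65 (SD, n = 4), by 1.14 (adjusted p = 0.0507 from limma). The difference was called with quantile normalization (1.24, adjusted p = 0.0306), with peaks at or above the median rlog alone (adjusted p = 0.0482), and without late morula replicate 1 (1.59, adjusted p = 0.0204) or early ICM replicate 1 or 3 (1.33 each).

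**Figure D3:**
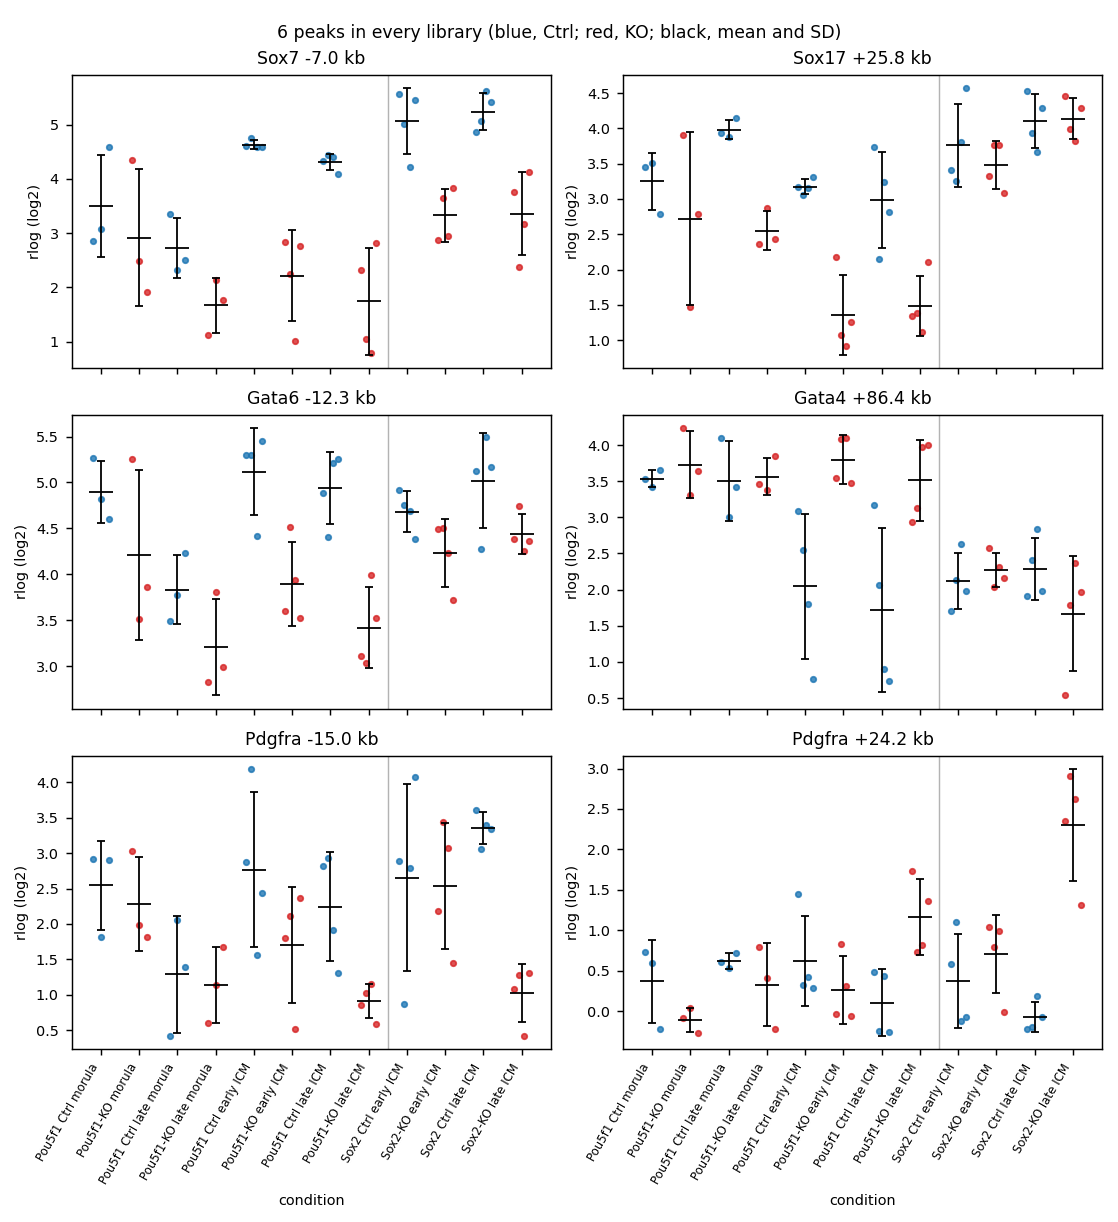
The rlog (log2) of 6 peaks in every library, by condition; blue points are Ctrl, red points KO, and black bars the mean and SD over 3 or 4 libraries. The *Sox7* peak is lower in both knockouts, the *Sox17* and *Gata6* peaks are called lower only in *Pou5f1*-KO, the *Gata4* peak is higher in *Pou5f1*-KO, and both *Pdgfra* peaks differ most between *Sox2*-KO and Ctrl in the late ICM.

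*Pdgfra* encodes the receptor for PDGF ligands that marks PE precursors and supports their survival. It held 8 of the 16 peaks called in a KO comparison (47.1% of its 17 peaks, against 24.5% of all peaks). Upstream of it lie 8 peaks, and 5 of these were called lower in *Pou5f1*-KO at some ICM stage (11.5% of all peaks were), all but the −5.0 kb peak on the lincRNA *Gm19583*. At −5.0 kb, Ctrl early ICMs had 3.74, 3.39, 3.63 and 4.35 and *Pou5f1*-KO 1.32, 2.18, 2.00 and 2.43. The groups did not overlap, and the difference was −1.79 (standard error 0.39, adjusted p = 0.000632 from limma). In the late ICM, Ctrl had 3.40, 2.54, 3.38 and 2.68 and KO 2.24, 1.40, 2.33 and 1.03, again without overlap and with a difference of −1.25 (adjusted p = 0.0151). The late call was lost without Ctrl replicate 1 (−1.12) or 3 (−1.12) or KO replicate 2 (−1.13) or 4 (−1.01). *Sox2*-KO differed from its Ctrl by −0.18 and 0.06 at this peak.

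The −6.0 kb peak (chr5:75146199-75146398, in an exon of *Gm19583*) had 4.30, 4.53, 3.81 and 4.62 in Ctrl and 1.440, 3.212, 3.247 and 3.359 in *Pou5f1*-KO early ICMs. All KO libraries were lower, replicate 1 by far the most, and the difference was −1.50 (adjusted p = 0.00637 from limma). Without KO replicate 1 it was −1.04 (adjusted p = 0.111). At −8.4 kb (chr5:75143762-75143961), Ctrl late ICMs had 2.85, 4.17, 3.58 and 3.54 and KO 2.35, 1.84, 2.55 and 2.65. These did not overlap, and the difference was −1.19 (adjusted p = 0.0182), reduced to −0.97 and −1.02 and not called without Ctrl or KO replicate 2. The −14.3 kb peak, with a SOX word in its window, had 3.04, 3.57, 2.90 and 3.08 in Ctrl and 1.00, 1.50, 1.24 and 1.88 in KO late ICMs, a difference of −1.74 (adjusted p = 0.00324). In early ICMs its *Pou5f1* Ctrl and KO libraries lay together, between 3.01 and 3.68. The effect thus differed by −1.89 between the stages, with an adjusted p of 0.390 for that difference. *Sox2* Ctrl early ICMs had 3.43, 3.19, 0.82 and 3.74 and *Sox2*-KO 2.05, 2.40, 1.74 and 1.02 at this peak. Ctrl replicate 3 lay below all KO libraries, and the difference of −0.99 (adjusted p = 0.356 from limma) was −1.65 and called without it (adjusted p = 0.0398). The *Sox2*-KO late ICM differed by −0.68 (adjusted p = 0.460).

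At −15.0 kb, with the cluster of GATA words, the decrease was seen in both knockouts in the late ICM. *Sox2* Ctrl libraries had 3.60, 3.06, 3.39 and 3.34 and *Sox2*-KO libraries 1.08, 1.29, 0.43 and 1.30. The groups were well apart, by −2.33 (standard error 0.48, adjusted p = 0.000243 from limma). *Pou5f1* Ctrl libraries had 2.81, 2.92, 1.92 and 1.31 and KO libraries 0.86, 1.03, 1.16 and 0.60, a difference of −1.33 (adjusted p = 0.0395) without overlap. That call was lost with quantile normalization (−1.22), without a trend in the variance prior, and without Ctrl replicate 1 or 2 or any single KO library (−1.10 to −1.41). In the early ICM the differences were −0.12 in *Sox2*-KO and −1.06 in *Pou5f1*-KO (adjusted p = 0.965 and 0.178), with single libraries from 0.87 to 4.07 in *Sox2* Ctrl.

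Within *Pdgfra*, an intronic peak at +24.2 kb, 320 bp from an annotated start site of another gene, was nearly closed in Ctrl and rose in both knockouts in the late ICM. *Sox2* Ctrl libraries had −0.21, −0.20, 0.19 and −0.07 and *Sox2*-KO libraries 2.35, 2.91, 2.63 and 1.32. All KO libraries lay above all Ctrl libraries, by 2.37 (standard error 0.39, adjusted p = 3.0e-06 from limma). *Pou5f1* Ctrl libraries had 0.48, −0.24, 0.44 and −0.25 and KO libraries 1.73, 0.73, 0.82 and 1.37. These did not overlap either, and the difference was 1.06 (adjusted p = 0.0472), not called without Ctrl replicate 2 (0.94) or 4 (0.94) or KO replicate 1 (0.87) or 4 (0.99). The *Sox2*-KO effect was larger by 1.32 (written as −1.32 for *Pou5f1*-KO minus *Sox2*-KO, 95% interval from −2.42 to −0.21, adjusted p = 0.281). In early ICMs the differences were 0.34 in *Sox2*-KO and −0.36 in *Pou5f1*-KO. In the *Pou5f1* Ctrl late ICM this peak ranked at the 2.42 percentile of all peaks.

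Another intronic peak, at +37.3 kb (chr5:75189455-75189654), was lower in *Pou5f1*-KO by −1.31 in early and −1.24 in late ICMs (adjusted p = 0.0394 and 0.0312 from limma), with overlapping libraries at both stages. Its early call was lost without any of 6 single libraries (Ctrl replicate 1, 2 or 3, KO replicate 2, 3 or 4, −1.06 to −1.36) and its late call without Ctrl or KO replicate 1, 2 or 3 (−1.02 to −1.25). Quantile normalization lost both (adjusted p = 0.0641 and 0.0557), and the fit of the compared libraries alone lost the early call (adjusted p = 0.0809). It differed by 0.35 and 0.36 in *Sox2*-KO. At +58.0 kb, beyond the gene (chr5:75210145-75210344, the single window with the FOXA word), *Sox2* Ctrl early ICMs had 2.53, 4.13, 3.08 and 4.62 and *Sox2*-KO 1.60, 1.27, 2.88 and 2.80. The groups overlapped, and the difference of −1.45 (adjusted p = 0.0281) was not called without Ctrl replicate 2 (−1.27) or 4 (−1.11) or KO replicate 1 (−1.27) or 2 (−1.17), in the fit of the compared libraries alone (adjusted p = 0.164) or without a trend in the variance prior (adjusted p = 0.0807). Over all 17 peaks the mean was 2.77 ± 0.26 (SD, n = 4) in *Pou5f1* Ctrl and 2.25 ± 0.07 (SD, n = 4) in KO late ICMs, and 3.11 ± 0.25 and 3.22 ± 0.06 (SD, n = 4 each) in *Sox2* Ctrl and KO. The peaks at −5.0, −8.4, +37.3 and +58.0 kb of *Pdgfra*, at +25.4 and +4.7 kb of *Sox17* and at +40.4 kb of *Gata4* were described because they were called, after their values were seen.

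**Figure D4:**
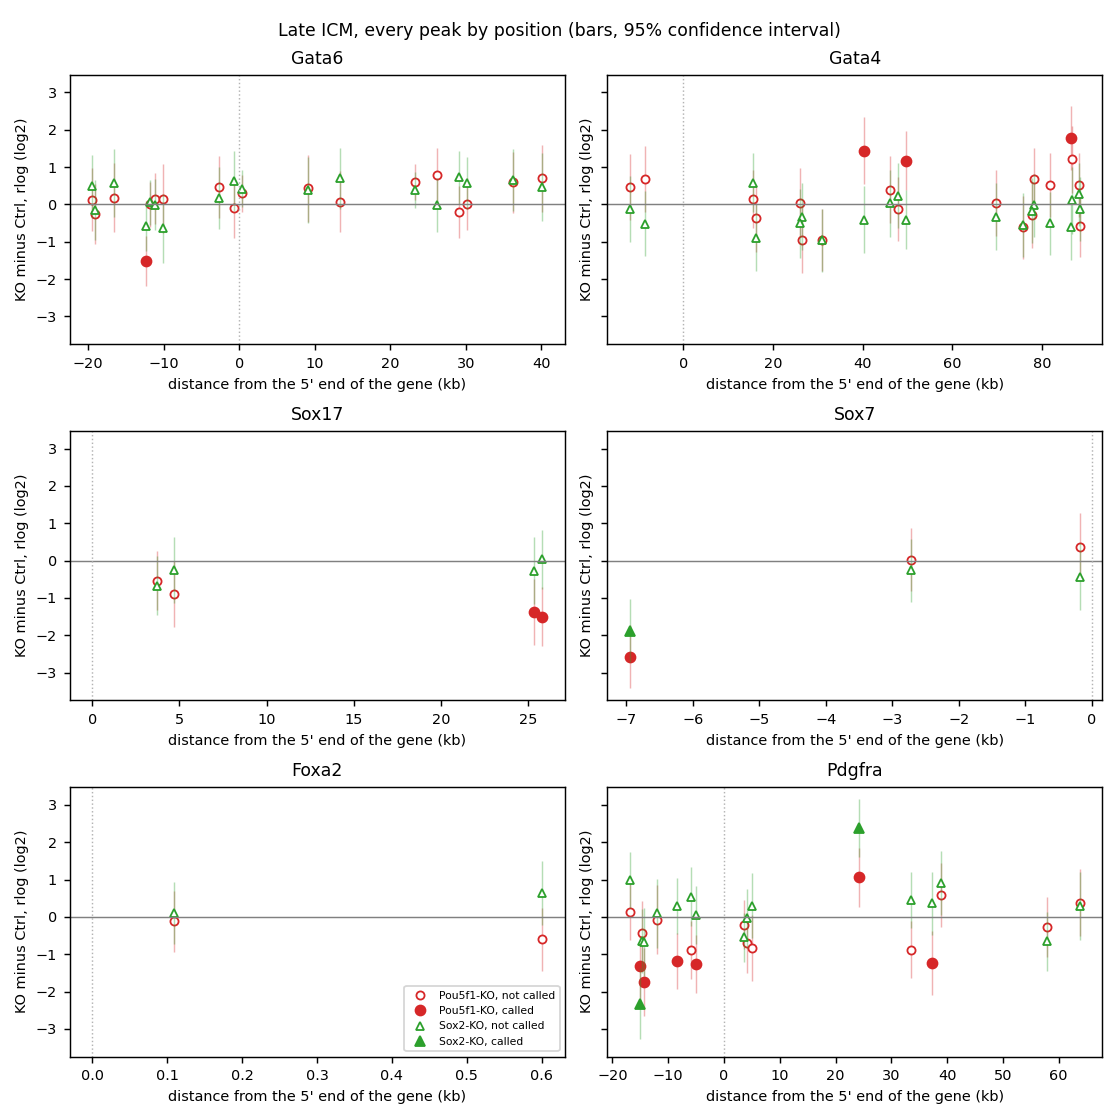
KO minus Ctrl difference in rlog (log2) in the late ICM at each of the 64 peaks against the distance of the peak from the 5′ end of the gene (kb), for *Pou5f1*-KO (red circles) and *Sox2*-KO (green triangles); filled symbols were called by limma and bars are 95% confidence intervals. Called peaks lie away from the 5′ ends, and at *Pdgfra* 4 of the 5 peaks called lower in *Pou5f1*-KO lie upstream.

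Markers of the cell types that an ICM pool can hold were set beside these results, as the peaks within 10 kb of the start sites of listed genes. At 8 epiblast genes, among them *Nanog* and *Fgf4*, 30 of 77 peaks were called lower and 1 higher in the *Pou5f1*-KO late ICM, and 17 lower and 1 higher in *Sox2*-KO. These were 39.0% and 22.1% lower, against 10.1% and 4.88% of all peaks. The mean over the list ranged from 3.87 to 4.13 in *Pou5f1* Ctrl and from 3.01 to 3.18 in KO late ICM libraries. At 15 other PE genes, such as *Dab2* and *Lamb1*, 14 of 122 peaks were lower and 21 higher in *Pou5f1*-KO and 2 lower and 10 higher in *Sox2*-KO late ICMs. The higher ones were 17.2% and 8.20%, against 8.19% and 2.71% of all peaks, and the lower ones in *Pou5f1*-KO 11.5%, against 10.1%. Their mean ranged from 2.84 to 2.96 in *Pou5f1* Ctrl and from 2.90 to 3.17 in KO, with a median difference of 0.27 against −0.04 for all peaks. The peak of this list with the smallest adjusted *Pou5f1*-KO late ICM p, which went against the median of the list, lay at *Lamc1* (chr1:153326831-153327030), the gene of a basement membrane laminin that the PE secretes. It fell by 2.70 on the log2 scale in the *Pou5f1*-KO late ICM (adjusted p = 2.48e-07 from limma) and differed by 0.15 in *Sox2*-KO (adjusted p = 0.911). At 9 trophectoderm genes, 7 of 78 peaks were lower and 8 higher in *Pou5f1*-KO (8.97% and 10.3%, near the shares of all peaks), with list means from 3.40 to 3.66 in Ctrl and from 3.427 to 3.746 in KO libraries. In *Sox2*-KO 1 was lower and 6 higher (1.28% and 7.69%, against 4.88% and 2.71% of all peaks). List means there ran from 3.38 to 3.50 in Ctrl and from 3.74 to 3.88 in KO libraries, which did not overlap. The part of cell composition in the results at the 6 loci was not tested.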

How the data were processed

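The measurement was ATAC-seq on pools of mouse embryos. The authors aligned reads to mm10 with Bowtie2, shifted them for Tn5, called peaks with MACS2, kept summits seen in several replicates as merged peaks of 200 bp, counted insertions per peak and deposited log2 values made with the rlog function of DESeq2. With rlog values in place of counts, the depth of a library is unknown and no interval from counts is given. The mean over replicates in the deposited mean table differed from the mean of the library values by at most 4.3e-08.

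All 152393 peaks were fitted with limma 3.58.1 (R 4.3.3), with 1 term for each of the 12 conditions, a trend in the variance prior, two-sided tests and Benjamini-Hochberg adjustment over all peaks of a comparison. The fit was tested on simulated data. Genes and start sites came from GENCODE vM21 on GRCm38 and sequences from RefSeq GRCm38. Tables were handled with Python 3.11.15 and pandas 2.3.3. The members and gene lists were chosen with earlier results of these data known. Named peaks were those whose edge lay within 100 bp of a start site of their own gene, the most open in the *Pou5f1* Ctrl late ICM, those with the smallest adjusted p of a locus in either late ICM KO comparison or between late morula and early ICM, those called alike in both late ICM knockouts, and those called in a test between effects; peaks named outside this rule are said to be so. Each marker list is represented by its peak of smallest adjusted p in the *Pou5f1*-KO late ICM.

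Same-numbered KO and Ctrl libraries deviated together in every pair, with correlations over all peaks above 0.1, in *Pou5f1* late morulae (0.109 to 0.192) and early ICMs (0.121 to 0.162) only. Nothing in the sources used here says that the numbers mark a shared batch. Alternatives were a fit of the compared libraries alone, stronger peaks alone, quantile normalization, a minimum size, no variance trend, a replicate block and leaving out each library. P-values measure the spread between pools.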

Additional observations from a re-analysis of the deposited data

Results flagged for a closer look

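In 14 of 216 groups of 4 ICM libraries examined, 1 library lay far from the other 3 (a gap over the range above Dixon's 95% critical value for 4), and chance alone gives about 1 in 20 groups. Low values at the *Gata4* start site (+26.4 kb) were all in replicate 1, with 1.56 in the *Pou5f1* Ctrl early ICM, 1.94 in the Ctrl late ICM and 0.85 in the KO late ICM. Of the peaks with KO calls, *Gata6* −12.3 kb had 4.41 in *Pou5f1* Ctrl early ICM replicate 3, *Sox7* −7.0 kb had 4.75 in *Pou5f1* Ctrl early ICM replicate 2, and *Pdgfra* +24.2 kb had 1.45 in *Pou5f1* Ctrl early ICM replicate 1. *Pdgfra* −6.0 kb had 1.44 in *Pou5f1*-KO early ICM replicate 1, on which its early call rests, and 3.62 in *Pou5f1* Ctrl late ICM replicate 4. *Gata4* +15.6 kb had 2.23 in *Sox2* Ctrl late ICM replicate 3, and *Foxa2* +0.6 kb had 2.33 in *Sox2* Ctrl early ICM replicate 3.

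Of the means over a locus, that of *Sox7* was 1.47 in *Pou5f1*-KO early ICM replicate 3, that of *Pdgfra* was 3.40 in *Pou5f1* Ctrl early ICM replicate 1, and that of *Foxa2* was 2.61 in *Pou5f1* Ctrl late ICM replicate 4 and 1.69 in *Sox2* Ctrl early ICM replicate 3. The knockout effects were called different from each other, by a test of that difference, at *Gata4* +86.4 kb in the late ICM (2.40, adjusted p = 0.0279 from limma). That call was lost when any of 7 libraries was left out (adjusted p up to 0.112).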

How the results depend on the processing

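Among the 64 peaks, 13 of the 27 KO calls and 8 of the 21 calls between stages held under every alternative that included the peak, and no call at a named peak changed sign. The cause was not tested for the changes below, except that the filter on weak peaks leaves fewer peaks to test. In a fit of the compared libraries alone, *Pou5f1*-KO late morulae gave 1 lower and 1 higher call, early ICMs 5 lower, *Sox2*-KO early ICMs 1 lower, and the step from early to late ICM 2 lower in *Pou5f1* Ctrl and 0 in *Sox2* Ctrl. Over all peaks, the alternatives other than leaving out a library gave 659 to 1357 lower (822 in the main fit) and 63 to 369 higher (165) in late morulae. In the step from early to late ICM they gave 263 to 349 lower (274) in *Pou5f1* Ctrl and 74 to 288 (184) in *Sox2* Ctrl. With peaks at or above the median rlog alone, *Pou5f1*-KO gave 5 lower in early and 5 lower and 2 higher in late ICMs, *Sox2*-KO 1 lower and 0 higher in late ICMs, the step from morula to late morula 2 lower and that to early ICM 7 higher. Fewer than 64 of the members were in that fit, so these counts are not out of 64. With that filter the *Gata4* mean differed by 0.0977, 0.646 and 0.568 in *Pou5f1*-KO late morula, early and late ICM and by −0.151 in the *Sox2*-KO early ICM, and the *Sox7* mean by −1.27 in the *Pou5f1*-KO late ICM. Without the filter the *Gata4* means of *Pou5f1*-KO and Ctrl were 2.33 and 2.06 in late morulae and 2.44 and 2.07 in early ICMs. In late ICMs they were 2.01 and 1.74, and in *Sox2*-KO and Ctrl early ICMs 1.81 and 1.78. Those of *Sox7* were 2.15 and 2.87 in *Pou5f1*-KO and Ctrl late ICMs. Counts over all peaks moved too: against 8273 lower in the *Pou5f1*-KO early ICM there were 7099 with the compared libraries alone, 4663 among the stronger peaks and 7408 with quantile normalization, and against 2917 in the *Sox2*-KO early ICM 1851, 1599 and 3262. The 4663 and 1599 are out of fewer peaks tested, so they do not show a smaller share called. With quantile normalization, *Pou5f1*-KO early ICMs gave 5 lower and the step to late morula 7 lower. Over all peaks that step gave 1666 to 6837 lower between the alternatives other than leaving out a library (4255 in the main fit). Without a trend in the variance prior, *Sox2*-KO early ICMs gave 1 lower. With at most 2 mismatches, 0 of the 64 peaks held the OCT-SOX word. Without the peaks on *Neil2*, an alternative chosen after seeing the data, the *Pou5f1*-KO early ICM had 0 higher.

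With the replicate block, late morulae gave 1 lower and 1 higher call, and the difference between the knockout effects in the early ICM 1 higher call. *Pou5f1*-KO early ICMs kept counts of 8 lower and 1 higher, and late ICMs had 9 lower and 6 higher, *Gata6* +23.3 kb among them (adjusted p = 0.0286 from limma). Calls over all peaks moved as well between the alternatives other than leaving out a library. In late ICMs they ran from 7674 to 18147 lower (15404 in the main fit) and from 7714 to 15487 higher (12481). For the difference between effects in the early ICM the higher calls ran from 416 to 1287 (469). In *Pou5f1* late ICMs the correlations of same-numbered libraries were not above 0.1 in every pair (0.0174 to 0.164). Nor were they in morulae (0.0479 to 0.153) or *Sox2* early (0.0859 to 0.293) and late ICMs (−0.0248 to 0.0903). Even so, every *Pou5f1*-KO library of morulae (3 of 3), late morulae (3 of 3) and early ICMs (4 of 4) correlated best with its own number. In each of the other ICM groups 3 of the 4 KO libraries did. The main fit makes no use of the numbers.

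Leaving out 1 library at a time gave 5 to 7 lower and 0 to 1 higher calls in *Pou5f1*-KO early ICMs, 5 to 10 lower and 1 to 4 higher in late ICMs, and 1 to 3 lower in *Sox2*-KO early ICMs. Over all peaks these fits gave 6397 to 7472 lower in *Pou5f1*-KO early ICMs (8273 with every library) and 12646 to 14455 in late ICMs (15404 with every library). The higher calls ran from 2461 to 3950 in early (4196) and from 9256 to 11700 in late ICMs (12481). In *Sox2*-KO early ICMs these fits gave 2118 to 2806 lower (2917). In *Pou5f1*-KO morulae they gave 12 lower and 7 higher without KO replicate 3 and 962 and 129 without KO replicate 1 (282 and 79 with every library, and 52 to 147 lower and 28 to 120 higher without another), and in late morulae 301 to 544 lower and 27 to 115 higher (822 and 165). The difference between knockout effects in the late ICM gave 0 to 1 higher. Between stages, lower calls numbered 2 to 4 from morula to late morula, 1 to 5 to early ICM, and 0 to 2 and 0 to 1 from early to late ICM in *Pou5f1* and *Sox2* Ctrl. All 64 members also lay whole inside the windows.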

Other observations

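The genes whose mean rlog over their peaks followed that of each locus most closely over the 12 condition means were listed among 15174 genes with at least 3 peaks. The points share libraries, and the values are descriptions. For *Gata6* these were *Lmln* (Pearson's r = 0.941), *Gm11032* (0.938) and *Rnd1* (0.933), and for *Gata4* they were *1700016D06Rik* (0.974), *Nelfcd* (0.970) and *Gtsf1* (0.968). For *Sox17* they were *Trim12c* (0.975), *Wdr95* (0.973) and *Gdf3* (0.972), and for *Sox7* *Map3k7* (0.971), *BC035044* (0.959) and *Kyat3* (0.959). For *Pdgfra* they were *Pdk2* (0.949), *Olfr97* (0.935) and *Bckdhb* (0.931), and for *Foxa2* *Cenpi* and *Tmem35a*, which share their peaks (0.955), and *Gna13* (0.949). Ranked by Spearman's rho, 1 of the 3 genes was shared for *Gata6*, 1 for *Foxa2* and 0 for the others.

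In the *Pou5f1*-KO late ICM, 30 of 77 peaks of the epiblast list were lower and 1 higher. For other PE genes 14 of 122 were lower and 21 higher, and for the trophectoderm 7 of 78 lower and 8 higher. Over all peaks, 10.1% were lower and 8.19% higher. The marker peaks with the smallest adjusted p in this comparison were nevertheless all lower. They were the single peak of smallest adjusted p of each list and lay at *Fgf4* (chr7:144858007-144858206), by −3.58 (adjusted p = 4.04e-11 from limma), at *Lamc1* and at *Cdx2* (chr5:147304939-147305138), by −2.02 (adjusted p = 0.00012). *Fgf4* encodes the ligand that acts on PE precursors, and *Cdx2* a trophectoderm factor.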
